A study of Mus musculus with 6 samples.

Results

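The 9 genes described here encode enzymes, though not all of them, that turn farnesyl diphosphate into squalene and squalene into cholesterol: Fdft1, Sqle, Lss, Cyp51, Msmo1, Nsdhl, Hsd17b7, Sc5d and Dhcr7. They are 9 of the 51912 genes in the count table, and were taken by symbol, in pathway order. The set was chosen by the measured difference between the same 6 libraries, where enzymes of cholesterol synthesis had been seen to be lower, so their fold changes below are a description and carry no test. RNA was sequenced by Smart-Seq2, a full-length cDNA method for small samples, from THY1-positive, c-KIT-negative cells, a surface pattern that enriches spermatogonial stem cells. The testes were from C57BL/6J mice, taken on day 4 after birth. A group of 3 was wild type, and a group of 3 was Bud31-vKO, in which Bud31, a gene of the spliceosome, was knocked out by the Cre-loxP method. The labels name neither the promoter that drove Cre nor the exons removed, and they do not say whether the libraries of a group came from separate animals. Errors and p-values therefore measure only the spread between these libraries, which may be technical. Column names use C and T, taken here to stand for control and targeted genotype.

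Cholesterol is made in the endoplasmic reticulum by a chain of enzymes that starts from acetyl-CoA. The mevalonate arm ends at farnesyl diphosphate, which feeds several branches, and squalene synthase commits it to sterols. The genes of the chain are known to be driven together by the SREBP transcription factors, which are released when membrane sterol is low and which act at promoters beside NF-Y and Sp1. In the gonads the intermediate that CYP51 makes, and the one that follows it, are known as meiosis-activating sterols.

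The promoter windows show what the genes share in sequence. Windows from 250 bases before to 50 bases after the annotated start were found in RefSeq for 7 of the 9 genes, on GRCm38.p6. The CCAAT box, to which NF-Y binds, was searched as CCAAT on both strands and stood in 7 of their 9 windows (Dhcr7 has 3) and in at least 1 window of each gene, against 37.4% of all 32851 windows. The GC box GGGCGG, to which Sp1 binds, was in 8 of the 9 windows, against 35.7% of all windows. The G and C content was 53.8% over all windows. It was 48.7% in 1 window of Dhcr7, the one with no GC box, and between 58.3% and 71.0% in the rest of the 9. The part of this content in the matches was not tested. The sterol element core TCACNCCAC was in none of the 7, against 1.24% of all windows, and says only that these letters were not there. The letters TCACCTCA were in those of Cyp51 and Hsd17b7, against 1.17% of all windows. All of these motifs were chosen after the windows had been read, and each was searched on both strands and counted by itself, so that GGGCGG may share bases with ATTGG, the CCAAT box on the other strand. A match is a description, not a binding site. Shown here are the windows with TCACCTCA and those of Nsdhl and Msmo1, which hold several CCAAT boxes, with both motifs in capitals, on either strand. Cyp51 lies at chr5:4104648-4104947 on the minus strand, Hsd17b7 at chr1:169969156-169969455 on the minus strand, Msmo1 at chr8:64733529-64733828 on the minus strand and Nsdhl at chrX:72918271-72918570 on the plus strand.
Cyp51: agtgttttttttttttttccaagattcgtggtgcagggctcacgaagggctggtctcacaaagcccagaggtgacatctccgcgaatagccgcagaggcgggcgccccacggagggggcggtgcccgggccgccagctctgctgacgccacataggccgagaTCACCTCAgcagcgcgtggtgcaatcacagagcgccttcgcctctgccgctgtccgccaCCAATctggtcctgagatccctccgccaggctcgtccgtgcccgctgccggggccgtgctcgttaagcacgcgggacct
Hsd17b7: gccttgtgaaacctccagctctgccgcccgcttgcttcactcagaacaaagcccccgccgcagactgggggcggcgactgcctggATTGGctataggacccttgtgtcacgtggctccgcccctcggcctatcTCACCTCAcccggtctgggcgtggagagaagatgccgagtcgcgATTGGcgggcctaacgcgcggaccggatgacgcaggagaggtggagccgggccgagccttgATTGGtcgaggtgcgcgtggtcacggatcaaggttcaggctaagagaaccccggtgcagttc
Msmo1: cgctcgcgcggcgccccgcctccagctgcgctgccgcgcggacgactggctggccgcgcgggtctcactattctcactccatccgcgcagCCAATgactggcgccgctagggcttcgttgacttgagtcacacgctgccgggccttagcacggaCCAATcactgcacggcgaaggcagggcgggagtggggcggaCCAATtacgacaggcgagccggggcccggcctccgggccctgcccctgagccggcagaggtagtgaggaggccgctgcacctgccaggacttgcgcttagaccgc
Nsdhl: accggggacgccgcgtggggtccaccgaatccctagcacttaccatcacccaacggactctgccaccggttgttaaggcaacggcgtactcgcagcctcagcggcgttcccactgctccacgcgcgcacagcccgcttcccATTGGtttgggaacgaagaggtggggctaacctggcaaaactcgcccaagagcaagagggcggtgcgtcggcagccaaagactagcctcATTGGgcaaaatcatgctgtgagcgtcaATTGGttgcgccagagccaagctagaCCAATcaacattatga
CCAAT boxes numbered 1 for Cyp51, 3 for Hsd17b7, 3 for Msmo1 and 4 for Nsdhl. Lss and Sc5d, not shown, had 1 each, and 1 of the 3 windows of Dhcr7 had 2.

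All 9 enzymes had a log2 fold change below 0 in Bud31-vKO, and for 7 of them every Bud31-vKO library lay below every wild type library. Summed over the 9, the level was 979, 1065 and 790 CPM (counts scaled to library size with TMM factors) in wild type libraries 1 to 3, against 333, 389 and 333 CPM in Bud31-vKO libraries 1 to 3. The groups did not overlap, and the mean was 944 ± 141 CPM on average in wild type, against 352 ± 32.0 CPM in the knockout (SD, n = 3 each), 2.68-fold lower. These sums rest on 13422 to 19278 reads in wild type and on 4506 to 5448 reads in Bud31-vKO. The median log2 fold change was -1.55 over the 9 enzymes and 0.02 over all 15240 genes tested.

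No enzyme of the 9 passed the threshold. By the quasi-likelihood test of edgeR, 0 of the 9 had an adjusted p under 0.05, as had 0% of all genes tested. DESeq2 also called 0 of the 9, where it called 0.315% of all genes. At an unadjusted p under 0.05 by edgeR, 4 of the 9 were lower, against 1.82% of all genes. A log2 fold change below 0 was found for 48.9% of all genes, and a lower level with no overlap between groups for 6.39%. Since the contrast chose the 9 genes, nothing is read from these shares. The coefficient of variation between libraries, as edgeR estimated it in common for all genes, was 119%. With 3 libraries in each group at that spread, 0 calls are not a sign of equal levels, here or in the lists below.

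**Figure D1:**
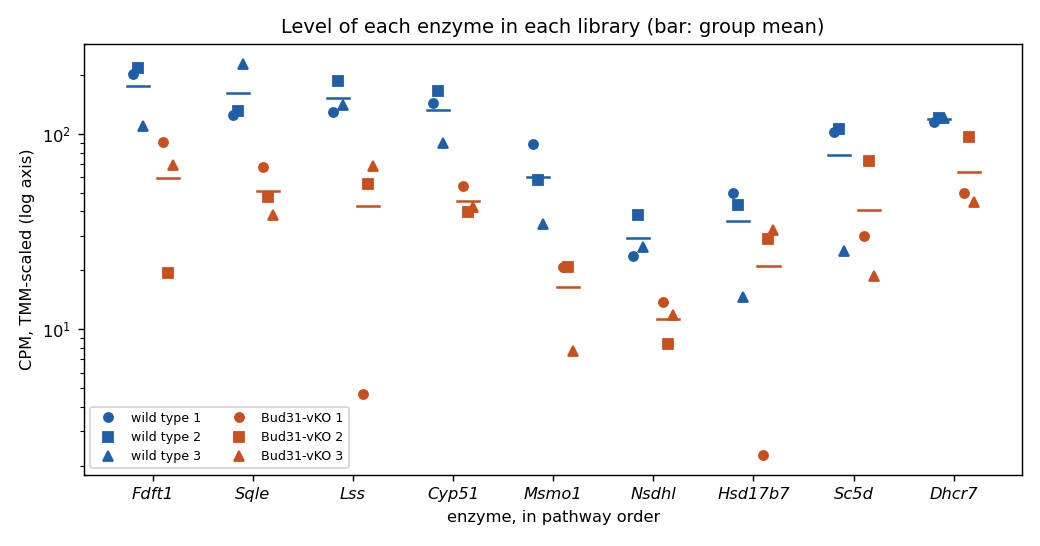
Level of each of the 9 enzymes in each library, in CPM scaled with TMM factors on a log axis, in pathway order, with a bar at the mean of each genotype. Orange points (Bud31-vKO) lie below all blue points (wild type) for 7 enzymes, and overlap them for Hsd17b7 and Sc5d.

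Squalene synthase, encoded by Fdft1, joins farnesyl diphosphate units into squalene and is the first enzyme committed to sterols. Fdft1 measured 201, 217 and 110.0 CPM in wild type libraries 1 to 3, against 90.6, 19.3 and 69.1 CPM in Bud31-vKO libraries 1 to 3. The gap between the groups was narrow, from 110.0 CPM in wild type library 3 to 90.6 CPM in Bud31-vKO library 1, while Bud31-vKO library 2 was far lower. The log2 fold change was -1.56 (standard error 0.60), a 2.95-fold lower level. Gene positions are on GRCm38, and the exons of Fdft1 (ENSMUSG00000021273, chr14:63145150-63179578, minus strand) overlap those of Ctsb on the other strand. Ctsb, whose reads cannot be told apart there without strand, measured 254 ± 15.7 CPM on average in wild type, against 228 ± 33.7 CPM in the knockout (SD, n = 3 each).

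Squalene epoxidase, encoded by Sqle (ENSMUSG00000022351, chr15:59315077-59331192, plus strand), adds oxygen to squalene and is a rate-limiting enzyme of the chain. Sqle measured 125, 131 and 229 CPM in the wild type libraries, against 67.6, 47.3 and 38.5 CPM in those of Bud31-vKO. All 3 Bud31-vKO libraries were well below the lowest wild type library, with a lowest wild type value 1.85 times the highest Bud31-vKO value. The log2 fold change was -1.66 (standard error 0.42). Wild type library 3, the highest for Sqle, was the lowest of its group for Fdft1, Cyp51, Msmo1, Hsd17b7 and Sc5d.

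Lanosterol synthase, encoded by Lss (ENSMUSG00000033105, chr10:76531588-76557138, plus strand), folds the epoxide into the ring system of the sterols. Lss measured 129, 187 and 140.3 CPM in the wild type libraries, against 4.68, 55.5 and 68.2 CPM in those of Bud31-vKO. Bud31-vKO library 1 stood far below the other two, at 64 reads against 778 and 923. The log2 fold change was -1.83 (standard error 0.83), and it was -1.27 without Bud31-vKO library 1. Lss has up to 22 annotated exons, the most of the 9. It overlaps 4930483K19Rik on the other strand, which had no read in any library.

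Cyp51, the cytochrome P450 that removes a methyl group from lanosterol, had the tightest Bud31-vKO values of the 9. It measured 144, 165 and 89.3 CPM in the wild type libraries, against 53.8, 39.8 and 42.1 CPM in those of Bud31-vKO. The Bud31-vKO libraries varied by 16.7% of their mean, the lowest such value of the set, and none reached the wild type range. The log2 fold change was -1.55 (standard error 0.41), a 2.94-fold lower level, and it lay between -1.75 and -1.38 when single libraries were left out. The exons of Cyp51 (ENSMUSG00000001467, chr5:4081145-4104746, minus strand) overlap Akap9 on the other strand. Akap9 went the other way, at 155 ± 44.3 CPM on average in wild type, against 252 ± 10.1 CPM in the knockout (SD, n = 3 each).

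Msmo1, Nsdhl and Hsd17b7 encode the oxidase, the decarboxylating dehydrogenase and the ketoreductase that take turns in removing the remaining methyl groups of the sterol ring. Msmo1 measured 88.3, 57.9 and 34.4 CPM in the wild type libraries, against 20.9, 20.8 and 7.69 CPM in those of Bud31-vKO. It had the lowest log2 fold change of the 9, -1.87 (standard error 0.72), and the groups did not overlap. Nsdhl, the only one of the 9 on the X chromosome, measured 23.6, 38.2 and 26.4 CPM in the wild type libraries, against 13.8, 8.35 and 11.8 CPM in those of Bud31-vKO. The groups of Nsdhl were apart as well, at a low level resting on 117 to 691 reads, with a log2 fold change of -1.37 (standard error 0.84). Hsd17b7 measured 49.8, 43.4 and 14.6 CPM in the wild type libraries, against 2.27, 29.0 and 32.2 CPM in those of Bud31-vKO. Its groups overlapped, since wild type library 3 was below Bud31-vKO libraries 2 and 3, and Bud31-vKO library 1 held only 31 reads. The log2 fold change of Hsd17b7 was -0.77 (standard error 1.06), and it was -0.21 without Bud31-vKO library 1. The difference for Hsd17b7 was smaller than its own error. Msmo1 is ENSMUSG00000031604, chr8:64718139-64733792, minus strand. Nsdhl is ENSMUSG00000031349, chrX:72918557-72958514, plus strand. Hsd17b7 is ENSMUSG00000026675, chr1:169949535-169969241, minus strand.

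Sc5d and Dhcr7 encode the desaturase and the reductase that set the last double bonds of the ring, and loss of DHCR7 in humans causes Smith-Lemli-Opitz syndrome. Sc5d measured 102, 105 and 25.04 CPM in the wild type libraries, against 30.0, 72.9 and 18.6 CPM in those of Bud31-vKO. Its groups overlapped in wild type library 3, which was below Bud31-vKO libraries 1 and 2, and the log2 fold change was -0.93 (standard error 0.75). Without wild type library 3 it was -1.33, without Bud31-vKO library 2 it was -1.66, and without both, the libraries with the fewest genes detected, it was -2.08. Dhcr7 had the steadiest wild type level of the 9, at 115, 120.5 and 121 CPM, a spread of 2.87% of the mean. In Bud31-vKO it measured 49.6, 95.9 and 45.0 CPM, so that library 2 came near the wild type range and the other two were far under it. The log2 fold change of Dhcr7 was -0.90 (standard error 0.42), a 1.87-fold lower level. Sc5d is ENSMUSG00000032018, chr9:42251595-42264256, minus strand. Dhcr7 is ENSMUSG00000058454, chr7:143823145-143848410, plus strand.

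Along the chain, the 6 steps from Fdft1 to Nsdhl had log2 fold changes between -1.87 and -1.37, and the last 3, Hsd17b7, Sc5d and Dhcr7, lay between -0.93 and -0.77. The difference between these stretches of the chain was seen in the values and not tested. Without wild type library 3 and Bud31-vKO library 2 the last 3 lay between -2.08 and -1.30, and the first 6 between -2.34 and -1.26, so the gap did not hold in the other 4 libraries.

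Each Bud31-vKO library was low in a different set. Bud31-vKO library 1 was lowest of all 6 for Lss and Hsd17b7, library 2 for Fdft1, Cyp51 and Nsdhl, and library 3 for Sqle, Msmo1, Sc5d and Dhcr7. Fdft1 made up 27.2%, 4.97% and 20.7% of the summed level in Bud31-vKO libraries 1 to 3, against 20.6%, 20.4% and 13.9% in wild type. For Lss the shares were 1.404%, 14.3% and 20.5% in Bud31-vKO and 13.2%, 17.5% and 17.8% in wild type. The share of every one of the 9 overlapped between the genotypes. The sum was steadier than most of its parts: it varied by 14.9% of the mean in wild type and 9.11% in Bud31-vKO. The median enzyme varied by 32.8% and 46.1%, and the median over all genes tested was 58.1% and 72.2%. A sum of genes that do not rise and fall together is steadier than its parts by arithmetic, so nothing is read from this.

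**Figure D2:**
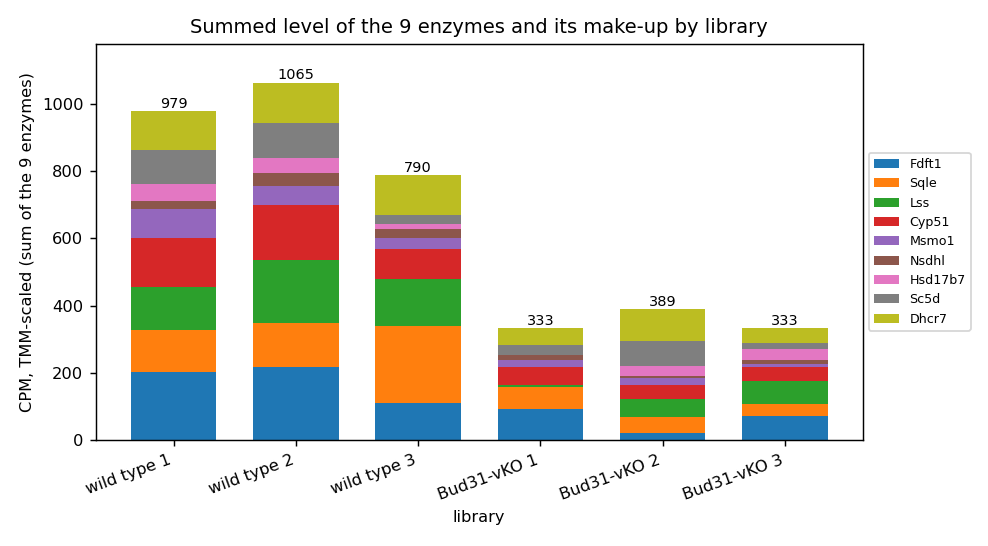
Summed level of the 9 enzymes in each library, in CPM scaled with TMM factors, with each bar split by enzyme. The bars reach 790 to 1065 CPM in wild type and 333 to 389 CPM in Bud31-vKO, and the split by enzyme differs from library to library within each genotype.

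Across all 6 libraries, the correlation of an enzyme's log2 CPM with the mean z-score of the other 8 ran from 0.46 for Hsd17b7 to 0.94 for Cyp51. These 6 points share the genotype difference that chose the set. With the genotype means taken out it ran from -0.81 for Sqle to 0.81 for Sc5d, and was below 0 for Fdft1, Sqle, Lss and Nsdhl. Depth differed between the 6 libraries, from 13240704 to 18744466 reads, and wild type libraries 2 and 3 were deeper than every Bud31-vKO library. These correlations are given as a description only.

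Per length of the longest transcript, Fdft1 and Dhcr7 had the highest mean levels of the 9 in wild type and Hsd17b7 the lowest. The wild type means were 47.6 ± 15.6 CPM per kilobase of longest transcript for Fdft1, 42.2 ± 1.21 for Dhcr7, 36.1 ± 13 for Sqle and 33.8 ± 9.95 for Cyp51 (SD, n = 3 each). Then came Lss at 21.8 ± 4.38, Msmo1 at 20.3 ± 9.10, Sc5d at 16.2 ± 9.49, Nsdhl at 13.6 ± 3.57 and Hsd17b7 at 7.79 ± 4.07 CPM per kilobase (SD, n = 3 each). Neighbours in this order overlapped in range in wild type, except Nsdhl and Hsd17b7, which did not. Dhcr7 ranked second in each wild type library, while Fdft1 was first in wild type libraries 1 and 2 and of rank 3 in library 3, where Sqle led. In Bud31-vKO, the mean of Dhcr7 was highest at 22.6 CPM per kilobase, led by library 2 at 34.1, and that of Fdft1 came next at 16.1 ± 9.88 (SD, n = 3), while that of Hsd17b7 was lowest at 4.58 ± 3.56, though only library 1 ranked it last. With the union of exons as the length, Fdft1 stayed first and Hsd17b7 last in wild type, Cyp51 took rank 2 and Dhcr7 rank 4. In Bud31-vKO that length turned the order, with Fdft1 first at 14.1 CPM per kilobase, Dhcr7 next at 10.9, Hsd17b7 at rank 6 and Msmo1 last at 2.68.

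**Figure D3:**
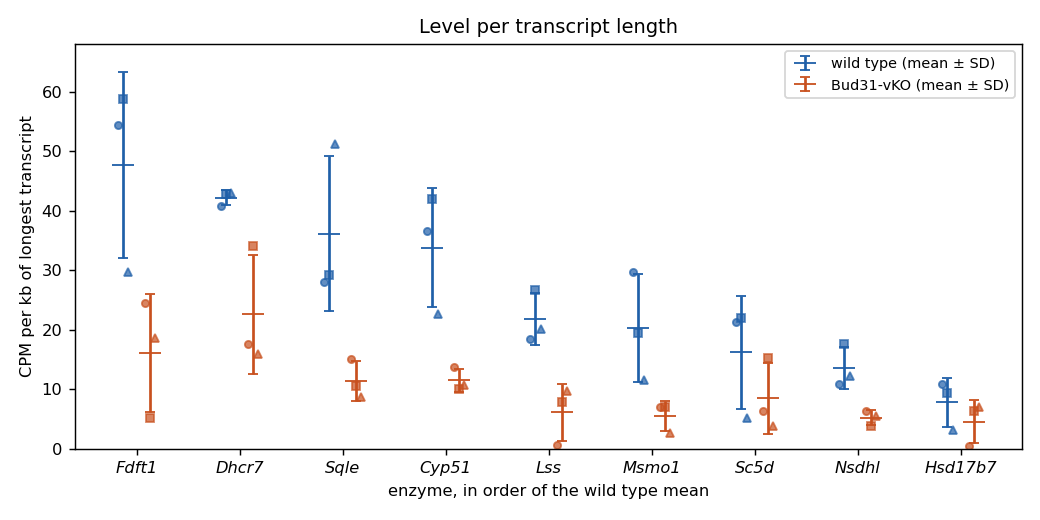
Level of the 9 enzymes per kilobase of longest transcript, in CPM per kilobase, ordered by the wild type mean, with points for libraries and mean ± SD of 3 libraries. Wild type means run from 47.6 for Fdft1 to 7.79 for Hsd17b7, and neighbours overlap except for Nsdhl and Hsd17b7.

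The enzymes that precede the 9 also had fold changes below 0, and those beside them in the late part of the chain were mixed. The 7 genes of the mevalonate arm given here, which are not the whole arm, lay below 0 on the log2 scale, and none had overlapping groups. Over all genes tested, 48.9% were below 0 and 6.39% were lower with no overlap. This list too was chosen with earlier results known, so nothing is read from these shares. The median of the 7 was -2.19, against -1.55 for the 9. It is the value of Pmvk, which has a wide error and 0 reads in Bud31-vKO library 2. The sum of the 7 ran from 546 to 729 CPM in wild type and from 152 to 178 CPM in Bud31-vKO. Hmgcs1, which makes HMG-CoA, had a log2 fold change of -2.28 (standard error 0.36) and was the only one of the 7 that DESeq2 called, while edgeR called 0 of the 7, with 3 lower at an unadjusted p under 0.05. Acat2, a thiolase that joins acetyl-CoA units, had a log2 fold change of -1.41 (standard error 0.42). For the later enzymes it was -1.64 for Mvk (standard error 0.94), -2.19 for Pmvk (1.83) and -1.43 for Mvd (0.62). It was -2.56 for Idi1 (0.95) and -2.42 for Fdps (1.46). In Bud31-vKO library 2, Pmvk, Idi1 and Fdps held only 0, 19 and 2 reads. The values of the arm come from the same 6 libraries as those of the 9, and are no independent support for them.

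Lbr, Tm7sf2 and Ebp also act in the late part, and edgeR called 0 of these 3, as did DESeq2, with 1 lower at an unadjusted p under 0.05. Lbr and Tm7sf2 encode reductases that follow CYP51. Lbr measured 109.7, 204 and 219 CPM in the wild type libraries, against 46.2, 84.2 and 45.5 CPM in those of Bud31-vKO, a log2 fold change of -1.60 (standard error 0.44) and no overlap. Tm7sf2, at or below 20.1 CPM throughout, had a log2 fold change of 1.01 (standard error 2.43). Ebp, the sterol isomerase, stayed at or below 8.36 CPM, and its log2 fold change was 0.71 (standard error 2.47). The levels of Tm7sf2 and Ebp were 0 in wild type library 3 and Bud31-vKO library 2.

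**Figure D4:**
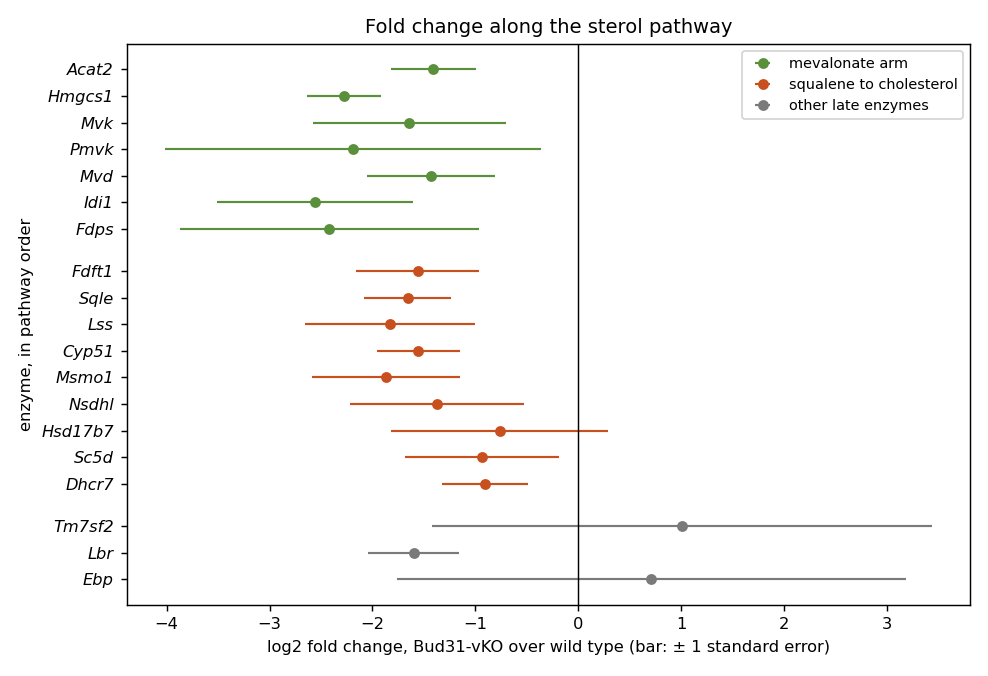
Log2 fold change of Bud31-vKO over wild type, with bars of 1 standard error, for 7 genes of the mevalonate arm, the 9 enzymes and 3 other late enzymes in pathway order. The 7 mevalonate genes and all 9 enzymes lie below 0, and Tm7sf2 and Ebp lie above 0 with wide bars.

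Genes that supply, sense or carry sterol are given next by their log2 fold changes, from the same edgeR fit, which called 0 in each list at an adjusted p under 0.05, as DESeq2 did. Of 7 genes at the branches of farnesyl diphosphate, 5 were below 0 with a median of -0.48. None was lower or higher at an unadjusted p under 0.05 by edgeR. Coq2 had -1.84 (standard error 2.19), Fntb -1.08 (1.055) and Dhdds -0.86 (0.51). The groups overlapped for Coq2 and Fntb and not for Dhdds. Coq2 held only 2 reads in wild type library 3 and 0 in Bud31-vKO library 2. Coq2 prenylates the ring of coenzyme Q, Fntb is a subunit of farnesyl transferase, and Dhdds is a subunit of the enzyme that makes the precursor of dolichol. In the list of 6 electron donors and scaffolds the median was 0.20. Pgrmc1, a haem protein that binds cytochromes P450, had 1.02 (standard error 0.42) and its Bud31-vKO values all lay above those of wild type. It was the only member of its list at an unadjusted p under 0.05. Cyb5a, an electron carrier, had 0.61 (standard error 0.66), and Erg28, a scaffold of the enzymes that remove methyl groups, had -0.57 (standard error 0.47).

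Of 8 sterol-sensing genes tested of 9, 5 were below 0 and 3 above, with a median of -0.27, and none passed an unadjusted p under 0.05. Insig1, which holds the SREBP complex in the endoplasmic reticulum and is an SREBP target, had -0.98 (standard error 0.455). Insig2 had -0.77 (standard error 2.01), with 0 reads in Bud31-vKO library 2, and Srebf1 had 0.76 (standard error 0.43). Srebf2, the main factor of cholesterol genes, measured 251.5, 316 and 117 CPM in the wild type libraries, against 199.5, 139 and 191 CPM in those of Bud31-vKO, and was added after its values were seen. The groups of Srebf2 overlapped, at a log2 fold change of -0.37 (standard error 0.41). The 11 genes of sterol uptake and efflux had a median of 0.11, with 5 below 0 and 6 above, and none passed an unadjusted p under 0.05. Mylip, a ubiquitin ligase, had 1.87 (standard error 1.61), and its Bud31-vKO values all lay above those of wild type. Abca1, which exports cholesterol, had -1.47 (standard error 1.12), and Lrp8, a lipoprotein receptor, had 1.02 (standard error 2.425). Both had overlapping groups, and Lrp8 had 0 reads in wild type library 3 and in Bud31-vKO library 2.

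The summed level of germ cell markers was lower in the Bud31-vKO libraries, and that of lymphocyte markers was higher. In bulk samples, fewer cells of a type and less RNA per cell cannot be told apart. The sum of 16 germ cell markers was 4545, 4632 and 3708 CPM in the wild type libraries, against 2060, 2844 and 2791 CPM in those of Bud31-vKO, 15 were tested and 15 were below 0, and the defining markers Ddx4 and Dazl were present in all 6 libraries, while Dppa3 was at 0 in all. Per 100 CPM of germ cell marker, the 9 enzymes held 21.5, 23.0 and 21.3 CPM in the wild type libraries, against 16.2, 13.7 and 11.9 CPM in those of Bud31-vKO. These ratios did not overlap either, and their means were 21.9 ± 0.92 and 13.9 ± 2.13 (SD, n = 3 each), 1.58-fold lower. The ratio depends on the markers summed. Dazl was the largest part, at 1406 CPM on average in wild type against 978.5 CPM in the knockout, a log2 fold change of -0.52. Over the 15 markers tested the median was -0.64, from -1.66 for Mael to -0.10 for Id4, against -1.55 for the 9 enzymes. Lymphocyte markers summed to between 22.7 and 97.9 CPM in wild type and between 158 and 659 CPM in Bud31-vKO, with 11 of 11 tested above 0. Leydig cell markers summed to between 19.7 and 28.2 CPM in wild type and between 30.1 and 99.9 CPM in Bud31-vKO, but only 3 of 8 could be tested, all 3 above 0 with overlapping groups. Of the others, Hsd3b1 had 52, 58 and 0 reads in wild type and none in Bud31-vKO, Hsd17b3 had 442 reads in Bud31-vKO library 1 and none in the other two, and Insl3 was at or near 0 throughout. Sertoli, stromal, endothelial, macrophage and erythroid sums overlapped between the genotypes. Of the markers tested, 10 of 11 were above 0 for Sertoli cells (median log2 fold change 1.399), 4 of 11 for stroma, 3 of 4 for endothelium, 4 of 6 for macrophages and 3 of 3 for erythroid cells. The highest sum of Sertoli markers was 2355 CPM in Bud31-vKO library 1, against 402 to 829 CPM in the other 5, and stromal sums ran from 8631 to 21830 CPM. In every library of both genotypes the stromal sum was above the germ cell sum, so the RNA was not from germ cells alone. Marker sums do not measure the share of cells. By edgeR 0 markers were called in each of these lists, and DESeq2 called 1 germ cell marker as lower and 3 lymphocyte markers as higher. The part of these cell types in the level of the 9 enzymes was not tested.

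**Figure D5:**
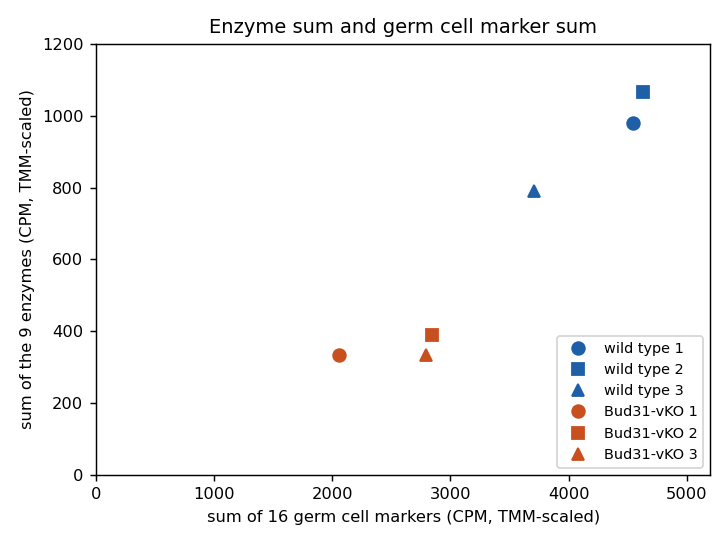
Sum of the 9 enzymes against the sum of 16 germ cell markers, both in CPM scaled with TMM factors, 1 point per library. Wild type libraries lie at 3708 to 4632 CPM of marker and 790 to 1065 CPM of enzyme, and Bud31-vKO libraries at 2060 to 2844 and 333 to 389 CPM.

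Totals were 13240704 to 18744466 reads per library, and wild type library 3 and Bud31-vKO library 2 had the fewest genes detected, 13762 and 12464 against 18171 to 22300 in the others. Without both, the log2 ratio of the summed level was -1.60 and the median of the 9 enzymes was -1.43. Bud31 itself measured 131 ± 31.1 CPM on average in wild type, against 65.1 ± 16.7 CPM in the knockout (SD, n = 3 each), with no overlap.

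Genes with a pattern like that of the 9 were sought among those with an ordinary symbol and a mean log2 CPM of at least 4. By Pearson's correlation with the mean z-score of the 9 over 6 libraries, the highest were Qdpr at 0.981, Angel2 at 0.980, Acsl3 at 0.979, Slc25a31 at 0.977 and Pgls at 0.968. Acsl3 activates fatty acids for lipid synthesis, Pgls is an enzyme of the pentose phosphate pathway, Qdpr regenerates tetrahydrobiopterin, and Slc25a31 is the adenine nucleotide carrier of germ cell mitochondria. Slc25a31 measured 1125, 1016 and 901 CPM in the wild type libraries, against 609.5, 610.5 and 610.3 CPM in those of Bud31-vKO. Acsl3 measured 68.5, 94.5 and 57.4 CPM in the wild type libraries, against 33.0, 38.8 and 34.4 CPM in those of Bud31-vKO. With the genotype means taken out, the 5 correlations lay between 0.688 and 0.875. The 5 genes were picked for the highest correlation over these same 6 libraries, so these values are no separate evidence of likeness.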

How the data were processed

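Smart-Seq2 RNA sequencing of sorted postnatal day 4 testis cells gave 6 libraries, 3 wild type and 3 Bud31-vKO. The authors deposited unscaled counts of reads, 1 whole number for each Ensembl gene and library. The submitters' processing notes name bcl2fastq and mm10. How reads were aligned and counted, with which annotation and strand setting, is not given in the sources used here. Columns C and T were read as wild type and Bud31-vKO. The RNA immunoprecipitation named in the series' design was not analysed here.

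Genes were annotated with GENCODE M21 on GRCm38. Of 51912 genes, 15240 were kept by filterByExpr in edgeR 4.0.16 (about 10 reads at the median depth in at least 3 libraries, and 15 in all), and all 9 members did. Libraries were scaled by TMM, genotypes were compared with the quasi-likelihood test of edgeR and no covariate, with p-values adjusted over all 15240 genes by the Benjamini-Hochberg method at 5%. Standard errors are the log2 fold change over the root of F. A level of 3 reads equals 0.166 to 0.222 CPM, for counting error only. An exact permutation test of 3 against 3 cannot go below 0.1, so none was run.

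The members and lists were chosen with earlier results of these data known. Named were the 9, Bud31, the mevalonate and other late enzymes, the 3 largest fold changes of each other pathway list, and the 5 genes most like the members with mean log2 CPM of at least 4 (prior count 2). For these 5, placeholder, clone and pseudogene symbols, such as Gm with a number or names with Rik, were left out. A few genes of these lists are not reported here, and list counts, sums and rankings leave them out. The list gene 0610007P14Rik was matched through its current symbol Erg28. The alternatives tried were scaling by RLE, by upper quartile and by library size, scaling after leaving out genes of mitochondria, haemoglobin and ribosomal RNA, 2 filters, DESeq2 1.42.0, limma-voom (limma 3.58.1), a replicate block, and libraries left out. The fit was tested on simulated data. Analyses ran in R 4.3.3 and Python 3.11.15.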

Additional observations from a re-analysis of the deposited data

How the results depend on the processing

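All 9 enzymes kept a log2 fold change below 0 in each of the 16 alternatives, 144 of 144 values. Only Sc5d, without wild type library 3 and Bud31-vKO library 2, moved by more than its spread between libraries. The median of the 9 was between -1.55 and -1.38 over these alternatives, and -1.49 to -1.38 without a wild type library in turn, -1.52 to -1.46 without a Bud31-vKO library. The log2 ratio of the summed level was -1.43 to -1.42 over the scalings except RLE, which gave -1.37, and -1.52 to -1.34 when single libraries were left out. Relative to the germ cell marker sum, an alternative chosen after seeing the data, it was -0.66. Genes called over the whole table were 0 in each alternative except DESeq2, with 48, and no filter on low counts, with 7. The cause was not tested. With the library number as a replicate block, the median of the 9 was -1.52 and 0 genes were called. Deviations of same-numbered libraries correlated at 0.19, 0.04 and -0.08, so the numbers were not taken as pairs. At 31 to 64 reads, Lss and Hsd17b7 in Bud31-vKO library 1 were above the floor of 3 reads.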
